A study of Mus musculus with 20 samples.

Results

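The ribosome biogenesis genes described here are 40 mouse genes whose products act in the nucleolus on the synthesis and processing of ribosomal RNA (rRNA). They were chosen by gene symbol as the rows of the expression table that carry these names, a rule that uses no expression value, and all 40 were found among the 25869 genes of the table. The choice was made with earlier results of these data known. By role they fall into 6 genes of RNA polymerase I transcription, 8 genes for proteins of the small nucleolar ribonucleoproteins (snoRNPs), 11 genes of small subunit processing, 9 genes of large subunit processing and 6 genes for nucleolar proteins with several tasks. All 40 passed the filter on low values in each of the 8 comparisons.

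Ribosome production starts in the nucleolus, where RNA polymerase I transcribes a long rRNA precursor that snoRNPs modify and that large sets of assembly factors cut, fold and join to ribosomal proteins. The transcription factor MYC is known to raise the expression of many of these genes in growing cells, and the nucleolus of MYC-driven lymphoma cells is typically large. In the *Eµ-Myc* mouse an immunoglobulin heavy chain enhancer drives *Myc* in the B lineage, so that the transgene acts in B cells and their precursors.

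RNA-seq of 20 libraries was compared. The dCas9a-SAM KI/+ allele carried by 16 of them encodes a catalytically dead Cas9 with transcriptional activators, which an sgRNA directs to a promoter. The 6 lymphoma lines were *Eµ-Myc*/dCas9a-SAM KI/+/sg*Bcl-2* cells grown in FMA medium, each from 1 mouse, and are called here by the number that opens their label: lines 14 to 17 were IgM-positive, and lines 18 and 19 were IgM-negative. Tumours 20 and 21 were primary tissue of the same genotype from the mice of lines 14 and 15. The 2 preB-ALL libraries came from BCR-ABL1 (p190T/+) leukaemia cells kept in IL7, without the dCas9a-SAM allele or an sgRNA in their labels. Their titles, P190CreERLSLErg (preB-ALL 1) and P190RagCreErg (preB-ALL 2), differ, so each library was read as its own leukaemia. The 10 mouse embryonic fibroblast (MEF) libraries came from E14 embryos, were grown in DMEM without *Eµ-Myc*, and comprised 2 WT libraries, 2 dCas9a-SAM KI/+ libraries without an sgRNA, 2 with the non-targeting sgNT and 4 with sg*Bcl-2*, the last being 2 libraries from each of 2 MEF lines (1.1 and 1.2, 2.1 and 2.2). Replicates of the MEF groups are thus few cultures, and p-values measure only the spread between these libraries. The sg*Bcl-2* labels end in BCL2_1 or BCL2_2 and do not say whether these are 2 guides or 2 repeats.

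Between 12474885 and 26678417 reads (median 23229458) were assigned to genes per library, with the lowest totals in preB-ALL. Values are CPM, the counts of a gene per 1000000 assigned reads, that is a share of all assigned reads, so a change in CPM is relative to the other RNAs of the library. In these bulk samples fewer cells of a type and less RNA per cell cannot be told apart. The preB-ALL RNA was extracted with another kit and sequenced in another run, and its table lists the mitochondrial genes at 0, so group and processing cannot be told apart there. All 12 fibroblast markers were detected in every MEF library, and the sum of 10 B cell markers was 1132 to 2590 CPM in the lines, 5452 and 5881 CPM in the tumours and 6179 and 10441 CPM in preB-ALL. Markers of other cell types were raised as a list, and not by a single gene, in 5 libraries. The summed level of 12 fibroblast markers was 3731 CPM in preB-ALL 1 and 1677 CPM in preB-ALL 2, with 1 and 2 of the 12 at 0, against 3.87 to 56.3 CPM in the lines. The sum of 8 myeloid markers was 41.9 and 31.8 CPM in the tumours, with none of the 8 at 0, against 2.30 to 13.9 CPM in the lines. WT MEF 2 had a fibroblast sum of 2636 CPM, against 9579 to 17757 CPM in the 9 other MEF libraries, and a myeloid sum of 232 CPM, against 5.12 to 8.67 CPM. *Thy1* held most of the fibroblast sum in line 15 (49.6 of 56.3 CPM) and in tumour 20 (169 of 172 CPM). *Lck* held most of the T cell sum in line 15 (62.2 of 62.7 CPM) and in line 17 (45.9 of 46.9 CPM).

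*Myc* itself was read first. It lay between 1148 and 2602 CPM in the 6 lines, the tumours having 1214 and 1230 CPM, whereas preB-ALL 1 and 2 had 473 and 221 CPM. In MEFs it was 62.6 and 58.4 CPM without an sgRNA, 50.2 and 55.1 CPM with sgNT, 59.9, 64.3, 59.3 and 80.6 CPM with sg*Bcl-2*, and 66.4 and 139 CPM in WT cells. Every library of *Eµ-Myc* origin was thus above every library without the transgene. The log2 fold change of the lines was 2.76 (SE 0.375, adjusted p = 0.000606, limma) against preB-ALL and 4.52 (SE 0.202, adjusted p = 4.91e-09, limma) against sg*Bcl-2* MEFs, and *Myc* did not pass the test in the other 6 comparisons.

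MYC binds DNA together with MAX at the sequence CACGTG, and the window from 250 bases before to 50 bases after the gene start was searched for these letters in RefSeq promoters of build GRCm38.p6. The motif reads the same on both strands, no other motif was searched, and 35 of the 40 members had an entry. *Bop1*, *Rrs1*, *Rrp12*, *Npm1* and *Fbl* had none. In the 250 bases before the start, 2 of 35 members (5.71%) held CACGTG, against 6.86% of the 27025 genes with a promoter entry and 11.0% of the 6793 of these genes with a mean of 10 CPM or more in the lines. These were *Nop2*, which encodes an rRNA methyltransferase of the large subunit pathway, and *Rrn3*, which encodes the factor that makes RNA polymerase I competent to start. Their 250 bases before the gene start are shown because they are the members whose upstream window holds the motif, which is in capitals. The *Nop2* window is chr6:125131633-125131882 and the *Rrn3* window is chr16:13780449-13780698, both on the plus strand.
Nop2: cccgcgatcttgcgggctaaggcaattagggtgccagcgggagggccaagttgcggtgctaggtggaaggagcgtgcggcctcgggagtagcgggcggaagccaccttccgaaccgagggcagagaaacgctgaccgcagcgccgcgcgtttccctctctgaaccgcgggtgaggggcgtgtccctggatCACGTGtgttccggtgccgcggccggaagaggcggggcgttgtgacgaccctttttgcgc
Rrn3: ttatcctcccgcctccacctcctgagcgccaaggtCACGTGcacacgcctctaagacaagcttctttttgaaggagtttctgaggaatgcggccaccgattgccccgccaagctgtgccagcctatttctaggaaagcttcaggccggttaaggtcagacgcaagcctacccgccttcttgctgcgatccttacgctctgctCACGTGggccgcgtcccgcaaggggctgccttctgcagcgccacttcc

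*Nop2* held the motif 60 bases before the start, and *Rrn3* held it at 215 and at 48 bases before the start. Over the whole 300 bases, 8 of 35 members (22.9%) held it, against 8.09% of all genes with an entry and 13.1% of those at 10 CPM or more in the lines. The remaining 6 members held it within the first 50 bases after the start of their promoter entry, and those short sites are shown with the motif in capitals for comparison of their flanks. For *Wdr43* that start lies after the annotated gene start, chr17:71616178. They lie at chr8:106893645-106893670 (*Utp4*, plus strand), chr10:88826765-88826787 (*Utp20*, minus strand), chr11:3963967-3963992 (*Pes1*, plus strand), chr11:72441357-72441376 (*Mybbp1a*, plus strand), chr11:74898094-74898119 (*Tsr1*, plus strand) and chr17:71616222-71616247 (*Wdr43*, plus strand).
Utp4: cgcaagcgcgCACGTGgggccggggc
Utp20: gcactaactaCACGTGaggaaaa
Pes1: ctaggcagggCACGTGcgggaggaag
Mybbp1a: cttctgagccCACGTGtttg
Tsr1: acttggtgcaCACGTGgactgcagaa
Wdr43: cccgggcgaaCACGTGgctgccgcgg

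These matches describe the reference sequence and not binding, and the absence of the letters from a window of 300 bases says only that they are not there. The 8 members with the motif came from every role except the snoRNP proteins, of which *Fbl* had no entry.

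Summed over the 40 members, expression separated the groups. The sum was 14935, 14239, 14955 and 15335 CPM in the IgM-positive lines and 18879 and 17696 CPM in the IgM-negative lines. It was 11935 and 11016 CPM in the tumours and 10297 and 7229 CPM in preB-ALL 1 and 2. The lines therefore stood highest, then the tumours and then preB-ALL, and no value of one of these groups overlapped with another. In MEFs the sum was 3852 and 3891 CPM without an sgRNA, 3088 and 2923 CPM with sgNT, 3138, 3077, 2858 and 2970.0 CPM with sg*Bcl-2*, and 3448 and 6030.4 CPM in WT cells. As a share of all assigned reads the members took 1.42% to 1.89% in the lines, 1.194% and 1.102% in the tumours, 1.03% and 0.723% in preB-ALL, 0.603% in WT MEF 2 and 0.286% to 0.389% in the other MEF libraries.

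**Figure D1:**
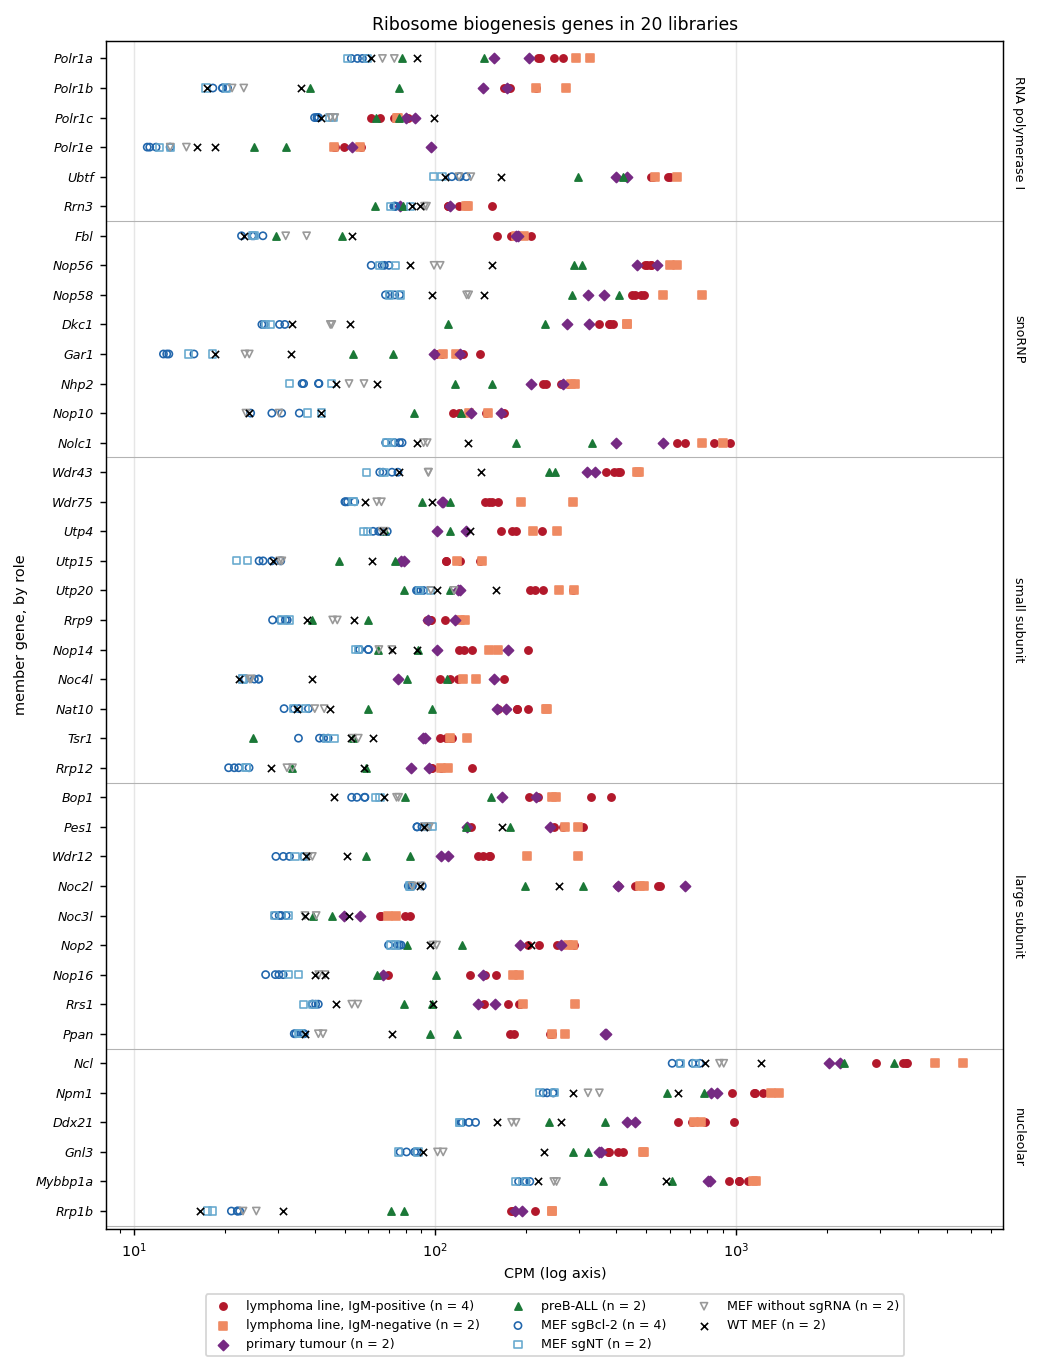
CPM (log axis) of the 40 ribosome biogenesis genes, ordered by role, in the 20 libraries, 1 point per library with the groups given by marker and colour. The 6 lymphoma lines lie to the right of the MEF libraries for most genes, with *Ncl* highest (2904 to 5641 CPM in the lines) and *Polr1c*, *Rrn3* and *Noc3l* showing the narrowest distance between lines and MEFs.

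The roles did not all follow this order. The RNA polymerase I genes summed to 1185 to 1493 CPM in the lines, 995 and 1021 CPM in the tumours, 817 and 578 CPM in preB-ALL and 306 to 492.9 CPM in MEFs. The snoRNP proteins summed to 2649.8 to 3338 CPM in the lines, 2545 and 2089 CPM in the tumours, 1678 and 1153 CPM in preB-ALL and 331 to 654 CPM in MEFs, which was by ratio the widest distance between lines and MEFs among the 5 roles. In both of these roles the lines, the tumours and preB-ALL did not overlap. Small subunit processing summed to 1766 to 2250.0 CPM in the lines, 1565 and 1343 CPM in the tumours and 1127 and 827 CPM in preB-ALL, in the same order, and 501 to 935 CPM in MEFs. Large subunit processing summed to 1904 to 2391 CPM in the lines, 2117 and 1732 CPM in the tumours and 1186 and 845 CPM in preB-ALL and 454 to 993 CPM in MEFs, so that tumour 20 lay above lines 14 to 17. For small and large subunit processing WT MEF 2, the highest of the MEFs, lay above preB-ALL 2. The multifunctional genes summed to 6209 to 9607 CPM in the lines, 4714 and 4830.5 CPM in the tumours and 5488 and 3826 CPM in preB-ALL and 1251 to 2955 CPM in MEFs, so that preB-ALL 1 lay above both tumours. One gene dominated the total: *Ncl*, which encodes nucleolin, a very abundant nucleolar RNA-binding protein, held 20.4% to 29.9% of the member CPM in the lines, 17.1% and 20.1% in the tumours, 32.3% and 31.5% in preB-ALL and 20.0% to 24.1% in MEFs.

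Per kilobase of annotated transcript, which allows genes to be compared with each other, *Npm1* (nucleophosmin, a histone and ribosome chaperone) ranked first in the lines with a mean of 733 CPM per kb, and *Ncl* second with 489 CPM per kb. Both also ranked first and second in sgNT MEFs. Reads of *Npm1* can be shared with processed pseudogenes, so its level is uncertain, and the long annotated *Ncl* transcript of 8.20 kb lowers its per-length level relative to a shorter transcript. *Nop58*, *Nop56* and *Nhp2*, which encode core proteins of box C/D (*Nop58*, *Nop56*) and box H/ACA (*Nhp2*) snoRNPs, followed with 314, 291 and 251 CPM per kb. *Polr1e*, a subunit of RNA polymerase I, was lowest with 16.8 CPM per kb. The order differed between cell types: *Dkc1*, the pseudouridine synthase of box H/ACA snoRNPs, was 12th in the lines and 31st in sgNT MEFs, whereas *Polr1c*, a subunit that RNA polymerase I shares with RNA polymerase III, was 28th in the lines and 9th in sgNT MEFs.

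The first comparison set the 6 lymphoma lines against the 2 preB-ALL libraries, both B lineage malignancies. In the lines 38 of 40 members were higher and 0 lower (limma, adjusted p under 0.05), where 20.9% of the 13961 genes tested were higher and 22.5% lower. The median log2 fold change of the members was 1.37, a ratio of 2.59, against -0.07 over all genes tested, and the members ranged from 0.40 to 2.64. All 6 lines lay above both preB-ALL libraries for 34 of 40 members, against 15% of all genes. The members whose libraries overlapped were *Polr1c*, *Noc4l*, *Nop10*, *Pes1*, *Nop16* and *Ncl*. By role the median log2 fold change was 1.18 for RNA polymerase I (5 of 6 higher), 1.28 for snoRNP proteins (8 of 8), 1.496 for small subunit processing (11 of 11), 1.43 for large subunit processing (9 of 9) and 1.35 for the multifunctional proteins (5 of 6).

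In RNA polymerase I transcription, *Polr1b*, which encodes the second largest subunit of the enzyme, ran from 169 to 272 CPM (median 197) in the lines and was 75.8 and 38.3 CPM in preB-ALL 1 and 2. Every line was above the higher preB-ALL library, and the log2 fold change was 2.26 (SE 0.299, adjusted p = 0.000528, limma). *Rrn3* ran from 110.2 to 155 CPM (median 124) in the lines against 78.3 and 63.1 CPM, a log2 fold change of 1.18 (SE 0.157, adjusted p = 0.000526, limma). *Polr1c* was the member closest to no difference. It had 61.0 to 81.0 CPM (median 73.8) in the lines and 63.7 and 76.0 CPM in preB-ALL, so that both preB-ALL libraries lay within the range of the lines.

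Among snoRNP proteins, *Fbl*, the methyltransferase fibrillarin of box C/D snoRNPs, showed the highest fold change of the 40 members. It ran from 160.1 to 209 CPM (median 187) in the lines and was 49.1 and 29.6 CPM in preB-ALL 1 and 2, which gave a log2 fold change of 2.64 (SE 0.202, adjusted p = 2.13e-05, limma). *Nolc1*, a phosphoprotein that chaperones snoRNPs, had 633 to 956 CPM (median 805) in the lines against 333 and 185 CPM, a log2 fold change of 2.03 (SE 0.268, adjusted p = 0.000514, limma). Both preB-ALL libraries lay below all 6 lines for these genes. *Nop10*, the small H/ACA protein, overlapped, with 114 to 169 CPM in the lines and 122 and 85.0 CPM in preB-ALL.

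In small subunit processing, *Utp20*, a very large scaffold protein of the small subunit processome, ran from 207 to 289 CPM (median 242) in the lines and was 112 and 78.6 CPM in preB-ALL 1 and 2, which gave a log2 fold change of 1.74 (SE 0.215, adjusted p = 0.000349, limma). *Wdr43*, a subunit of the early-binding t-UTP complex, had 369 to 475 CPM (median 408) against 251 and 239.5 CPM, a log2 fold change of 1.13 (SE 0.152, adjusted p = 0.000561, limma). The smaller fold of *Wdr43* came with preB-ALL libraries that were close to each other, whereas those of *Utp20* were further apart. *Tsr1*, a GTPase-like factor of late small subunit maturation, was 53.4 and 24.8 CPM in preB-ALL 1 and 2 and 104 to 127 CPM in the lines.

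In large subunit processing, *Nop2* ran from 204 to 289 CPM (median 265) in the lines and was 123 and 80.6 CPM in preB-ALL 1 and 2, which gave a log2 fold change of 1.71 (SE 0.213, adjusted p = 0.000373, limma). *Noc3l*, a factor of pre-60S maturation and transport, had 65.4 to 82.5 CPM (median 71.9) against 45.4 and 39.4 CPM, a log2 fold change of 1.14 (SE 0.142, adjusted p = 0.000360, limma). Neither gene overlapped between lines and preB-ALL, and line 15 was the highest line for both. The PeBoW complex genes *Pes1*, *Bop1* and *Wdr12* differed in this respect: *Bop1* and *Wdr12* did not overlap, with 153 and 79.4 and 82.6 and 58.8 CPM in preB-ALL, whereas *Pes1* was 132 CPM in line 15 and 178 and 127 CPM in preB-ALL.

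Among the multifunctional proteins, *Rrp1b*, a nucleolar protein that binds chromatin and pre-ribosomes, ran from 178 to 244 CPM (median 199) in the lines and was 78.6 and 71.4 CPM in preB-ALL 1 and 2, which gave a log2 fold change of 1.82 (SE 0.189, adjusted p = 0.000124, limma). *Ddx21*, an RNA helicase, had 639 to 980.4 CPM (median 744) against 367 and 239 CPM, a log2 fold change of 1.72 (SE 0.221, adjusted p = 0.000443, limma). *Ncl*, the most abundant member, did not pass the test. Its preB-ALL libraries had 3329.8 and 2278 CPM, and preB-ALL 1 lay above line 15, the lowest line at 2904 CPM.

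A list of 98 further genes of the pathway was chosen, like the members, with earlier results of these data known. Of these genes 69 were higher and 1 lower in the lines, with a median log2 fold change of 0.92. They divided into 4 of 11 other RNA polymerase I genes, 30 of 39 other small subunit genes, 25 of 35 other large subunit genes and 10 of 13 nuclear exosome genes that were higher. The 2 preB-ALL libraries were not alike. For 38 of 40 members preB-ALL 1 was above preB-ALL 2, where 50.4% of all genes were, the exceptions being *Polr1c* and *Ppan*. With either left out, the remaining preB-ALL library takes its spread from the lines. Without preB-ALL 2 the members' median log2 fold change was 1.02 with 28 members higher in the lines, against 9.37% of genes, and without preB-ALL 1 it was 1.61 with 36 higher, against 17.5% of genes. No member was lower in either, against 12.8% of genes without preB-ALL 2 and 17.7% without preB-ALL 1. The fibroblast marker sum was also the higher in preB-ALL 1. Of the 10 cell cycle markers 8 were higher and 0 lower in the lines than in preB-ALL, with a median log2 fold change of 0.75. The part of these markers in the difference was not tested.

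The second comparison set the 6 lines against the 4 sg*Bcl-2* MEF libraries. Both carry the dCas9a-SAM KI/+ allele and a guide for *Bcl2*, and they differ in tissue, medium and the *Eµ-Myc* transgene together. Whether the guide sequence was the same is not given in the labels. All 40 members were higher in the lines (limma, adjusted p under 0.05), where 36.3% of 14620 genes were, and in all 40 the 6 lines lay above the 4 MEF libraries without overlap, against 36.4% of genes. The median log2 fold change was 2.12, a ratio of 4.34, against -0.27 over all genes tested. It was 1.96 for RNA polymerase I, 2.79 for snoRNP proteins, 1.602 for small subunit processing, 2.06 for large subunit processing and 2.29 for the multifunctional proteins. Of the 98 further pathway genes 93 were higher and 1 lower, with a median of 1.42.

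*Dkc1* had the highest fold change of the members. It ran from 349 to 433 CPM (median 386) in the lines and was 31.7, 30.4, 26.6 and 27.1 CPM in the 4 MEF libraries, a log2 fold change of 3.58 (SE 0.0905, adjusted p = 6.89e-11, limma), which is 11.99-fold. *Fbl* was 26.8, 25.0, 22.7 and 24.7 CPM in the MEF libraries, with a log2 fold change of 2.73 (SE 0.0792, adjusted p = 1.67e-10, limma). The MEF libraries of both genes lay close together and far below the lowest line.

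In RNA polymerase I transcription, *Polr1b* was 18.3, 20.4, 19.7 and 19.7 CPM in the MEF libraries, a log2 fold change of 3.18 (SE 0.145, adjusted p = 5.60e-09, limma). *Ubtf*, which encodes the upstream binding factor UBF that opens rDNA chromatin, ran from 522 to 635 CPM (median 564) in the lines and was 121, 114, 120.0 and 127 CPM in the MEF libraries, a log2 fold change of 2.06 (SE 0.0813, adjusted p = 1.76e-09, limma). By contrast *Rrn3* and *Polr1c* were the members with the smallest log2 fold changes, 0.58 and 0.64. The MEF libraries had 73.3, 73.6, 72.9 and 74.0 CPM of *Rrn3*, against 110.2 CPM in the lowest line, and 41.0, 39.8, 40.6 and 40.5 CPM of *Polr1c*, against 61.0 CPM in the lowest line.

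In subunit processing, *Wdr43* was 75.2, 65.5, 71.9 and 67.1 CPM in the MEF libraries, a log2 fold change of 2.40 (SE 0.0927, adjusted p = 1.46e-09, limma). *Rrp12*, an export factor of pre-ribosomes, had 96.5 to 132 CPM (median 104) in the lines and 20.6, 24.1, 22.3 and 21.5 CPM in the MEF libraries, a log2 fold change of 2.09 (SE 0.109, adjusted p = 1.70e-08, limma). *Noc2l*, a partner of *Noc3l*, had 404 to 556 CPM (median 486) against 83.2, 84.1, 81.4 and 90.6 CPM, a log2 fold change of 2.34 (SE 0.0847, adjusted p = 8.65e-10, limma). For these genes the 4 MEF libraries differed from each other by less than the lines did. *Ppan*, a large subunit assembly factor of the Brix family, had 178 to 269 CPM (median 242) against 36.8, 36.5, 34.5 and 34.0 CPM, a log2 fold change of 2.48 (SE 0.126, adjusted p = 1.37e-08, limma).

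Among the multifunctional proteins, *Rrp1b* was 22.0, 21.0, 22.4 and 22.0 CPM in the MEF libraries, a log2 fold change of 3.05 (SE 0.123, adjusted p = 2.11e-09, limma). *Mybbp1a*, a MYB-binding protein of the nucleolus, ran from 946 to 1162 CPM (median 1055) in the lines and was 198, 200.3, 189 and 206 CPM in the MEF libraries, a log2 fold change of 2.24 (SE 0.0894, adjusted p = 1.93e-09, limma). The 2 sg*Bcl-2* libraries of a MEF line share their cells, so the p-values of this comparison treat related libraries as separate. All 10 cell cycle markers were also higher in the lines than in sg*Bcl-2* MEFs, by 1.98 to 4.08 on the log2 scale, and their part in the difference was not tested.

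**Figure D2:**
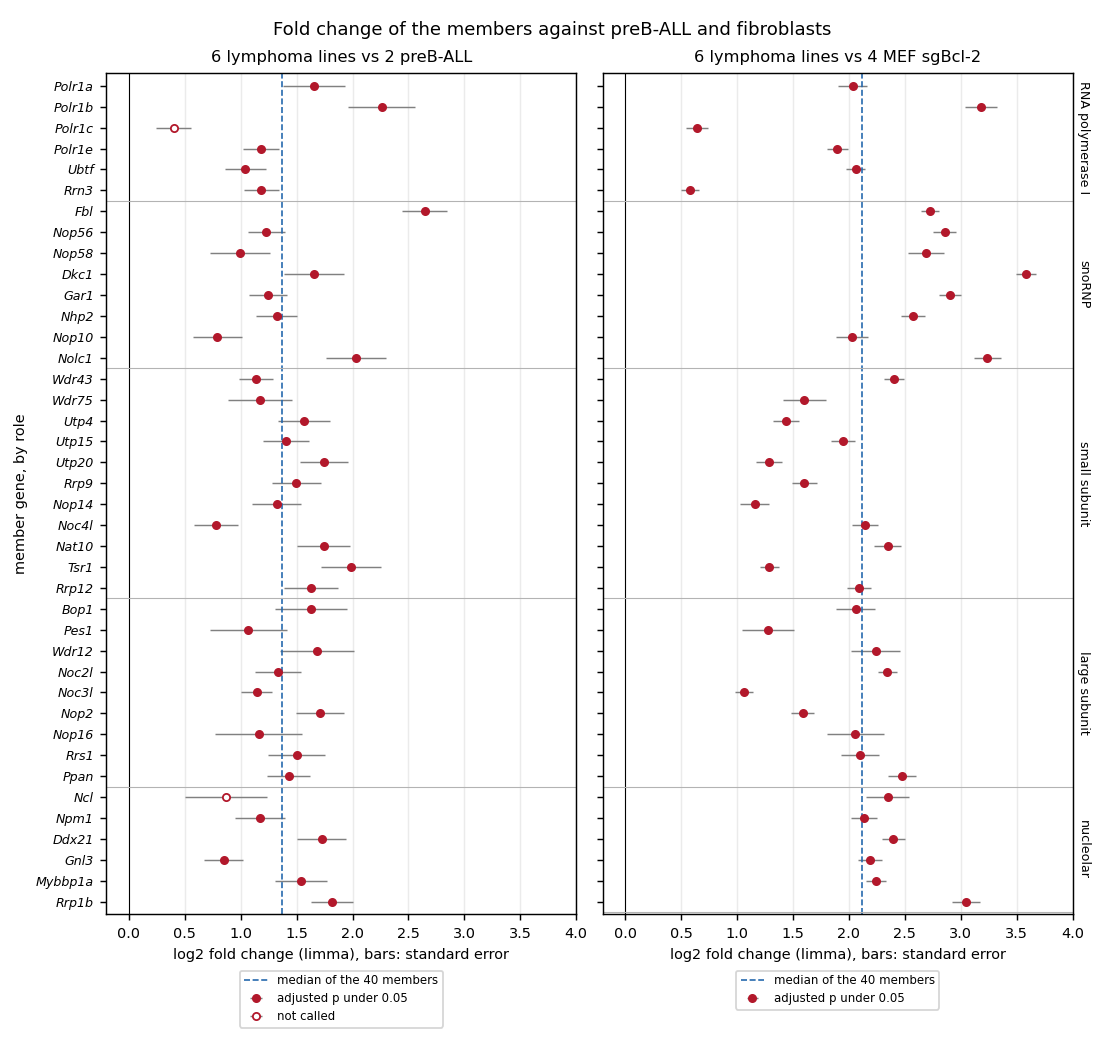
log2 fold change (limma) of the 40 members in the 6 lymphoma lines against preB-ALL (left) and against sg*Bcl-2* MEFs (right), with bars for the standard error, filled points for members past the adjusted p threshold of 0.05 and a dashed line at the members' median (1.37 and 2.12). All points lie right of 0, *Fbl* being the highest on the left (2.64) and *Dkc1* on the right (3.58).

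Against all 10 MEF libraries in CPM, without a test, the 6 lines were above every MEF library for 37 of 40 members, against 27.6% of genes. The exceptions were *Polr1c*, *Pes1* and *Nop2*, for which WT MEF 2 reached 98.8, 167 and 208 CPM. Without WT MEF 2 it was 40 of 40, against 33.8% of genes. Both tumours were above all MEF libraries for 33 members, against 34.4% of genes, the exceptions being *Polr1c*, *Rrn3*, *Utp4*, *Utp20*, *Pes1*, *Noc3l* and *Nop2*. Both preB-ALL libraries were above all MEF libraries for 20 members, against 35.6% of genes, and without WT MEF 2 for 30 members, against 42.6%. The 10 members for which preB-ALL then still overlapped with MEFs included *Fbl* (49.1 and 29.6 CPM in preB-ALL, 22.7 and 37.4 CPM as the lowest and highest of the 9 MEF libraries) and *Utp20* (112 and 78.6 CPM in preB-ALL, 86.7 and 115 CPM likewise).

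Within the 6 lines the members varied by different amounts. The coefficient of variation was 6.95% for *Tsr1*, 7.63% for *Mybbp1a*, 8.22% for *Ubtf* and 8.45% for *Dkc1*, and it was 25.4% for *Bop1*, 29.7% for *Nop16*, 29.8% for *Wdr75* and 34.3% for *Wdr12*. In the 4 sg*Bcl-2* MEF libraries it ran from 0.661% for *Rrn3* to 15.3% for *Nop10*. Among the members that varied most, single lines or pairs of lines stood apart. *Wdr12*, a PeBoW subunit, was 145, 138.3, 152 and 151 CPM in lines 14 to 17 and 299 and 201.8 CPM in lines 18 and 19. *Nop16*, a large subunit factor, was 69.8 CPM in line 14 and 130.4 to 190.2 CPM in the other 5 lines.

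A part of this variation followed the chromosome on which a member lies. Deviations were taken as the log2 CPM of a library minus the median of the 6 lines, over genes with a mean of 10 CPM or more. In line 18 the median deviation of 481 genes of chromosome 1 was 0.49, and the 5 members on chromosome 1 (*Nop58*, *Wdr75*, *Wdr12*, *Rrs1* and *Ncl*) had a median of 0.65. The same 5 members were also raised in line 19, by 0.03 to 0.41 with a median of 0.29, where the median of chromosome 1 was -0.01. *Wdr75*, a t-UTP subunit, was 288 CPM in line 18 and 147 to 193 CPM in the others, and *Rrs1*, which brings the 5S particle into the large subunit, was 292 CPM against 145 to 195 CPM. In line 15 chromosome 5 deviated by 0.54 and its members *Nop14* and *Noc4l*, partners in the small subunit processome, by a median of 0.51. *Nop14* was 204 CPM there and *Noc4l* 169 CPM, the highest of the lines for both.

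*Bop1*, on chromosome 15, was 329 and 383 CPM in lines 16 and 17, in which chromosome 15 deviated by 0.40 and 0.42, and 205 to 251 CPM in the other lines. Chromosome 16 deviated by 0.43 in line 15, where its member *Rrn3* was highest at 155 CPM. Chromosome 10 deviated by 0.32 in line 17, and its members *Ddx21* and *Utp20* by a median of 0.32, *Ddx21* reaching 980.4 CPM. *Utp20* was 286 CPM there and 289 CPM in line 18, where chromosome 10 deviated by -0.04. Chromosome 19 deviated by 0.48 in line 16, and its members *Nolc1*, *Rrp12* and *Noc3l* by a median of 0.25. *Noc3l* was highest in line 15 at 82.5 CPM, where chromosome 19 deviated by 0.06. Deviations of single members also occurred without one of the chromosome: *Pes1* in line 15 (132 CPM, deviation -1.02) lies on chromosome 11 with a median of 0.01, and *Nop16* in line 14 (deviation -1.13) on chromosome 13 with a median of -0.13. DNA was not measured, so what moves a chromosome's genes together was not tested.

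**Figure D3:**
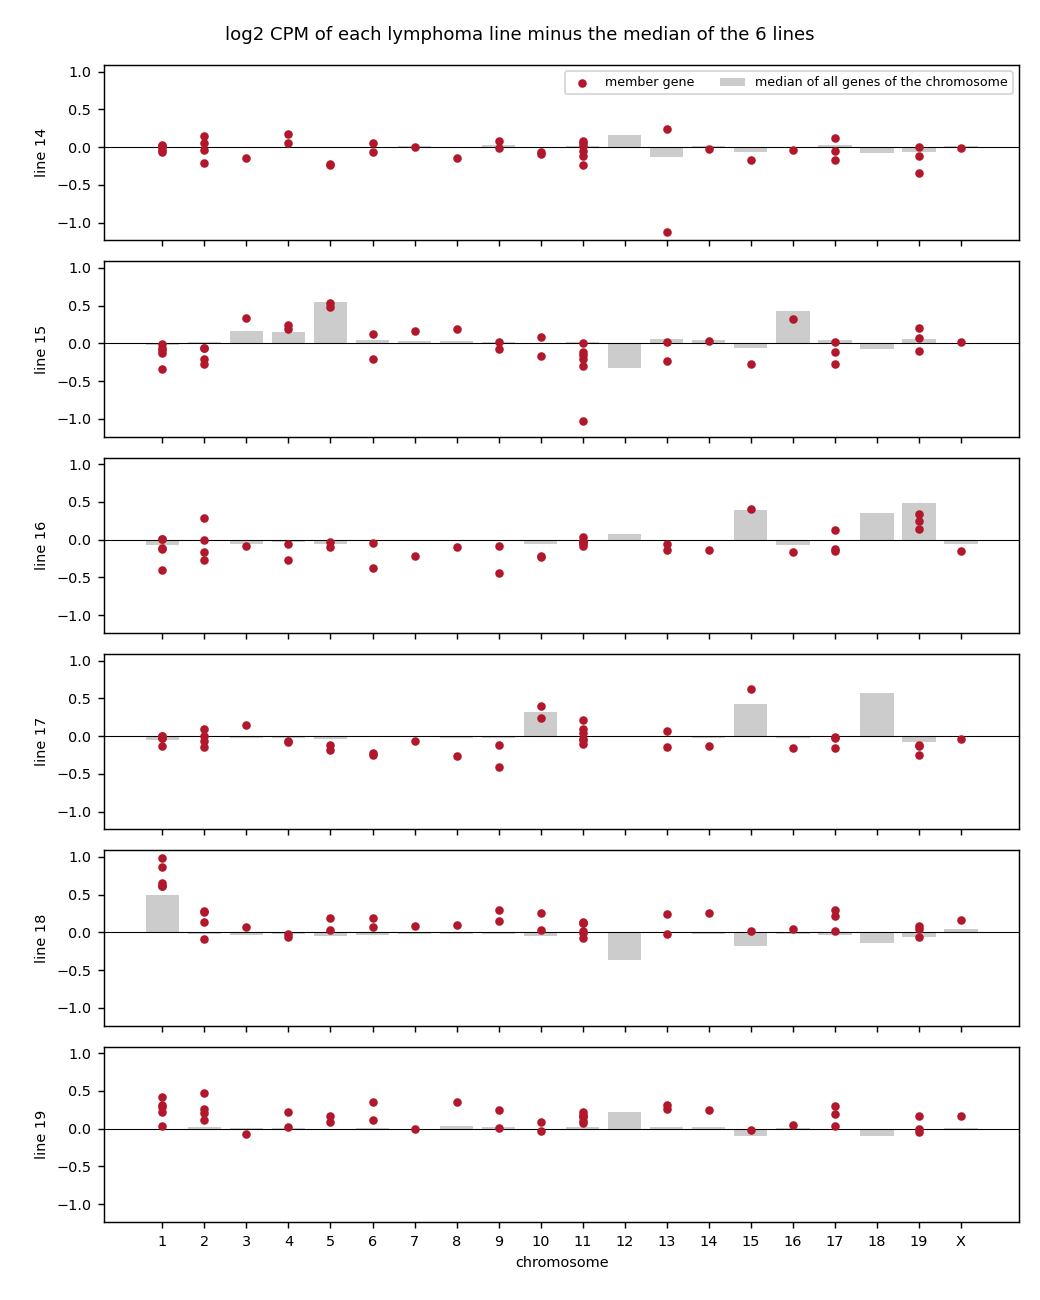
log2 CPM of each lymphoma line minus the median of the 6 lines, by chromosome, with grey bars for the median over all genes of a chromosome at 10 CPM or more and red points for the members. Chromosome 1 in line 18 (0.49) and chromosome 5 in line 15 (0.54) stand out with their members, whereas *Pes1* in line 15 (-1.02) and *Nop16* in line 14 (-1.13) lie far below the bar of their chromosome.

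The third comparison split the lines by surface IgM. 0 of 40 members passed the test (limma, adjusted p under 0.05, smallest member value 0.198), where 0.597% of 12386 genes did. At an unadjusted p under 0.05 there were 15 of 40 members, against 11.3% of genes. edgeR called 0 members and 0.194% of genes. DESeq2 called 11 members, all higher in the IgM-negative lines, against 1.4% of genes higher and 4.7% lower by DESeq2. Both IgM-negative lines were above all 4 IgM-positive lines for 17 of 40 members, against 7.82% of genes, and below all of them for 0, against 14.8% of genes. Those 17 included all 5 members on chromosome 1 and 12 of the 35 others. The median log2 fold change was 0.28 over the 40 members, 0.62 over the 5 on chromosome 1 and 0.23 over the other 35. A value above 0 was found for 38 members, against 47.6% of the genes tested.

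Of the members on chromosome 1, *Ncl* was 3571, 2904, 3684 and 3672 CPM in lines 14 to 17 and 5641 and 4577 CPM in lines 18 and 19. *Nop58* was 495, 459.9, 449 and 481 CPM in lines 14 to 17 and 767 and 571 CPM in lines 18 and 19. For both, line 18 was the highest and line 19 next. *Polr1a*, the largest subunit of RNA polymerase I, lies on chromosome 6 and was 266, 222, 248 and 220.0 CPM in lines 14 to 17 and 292 and 327 CPM in lines 18 and 19, without overlap. With 2 lines in 1 group, other features move with IgM: lines 18 and 19 expressed *Xist* at 1840 and 2249 CPM, against at most 2.05 CPM in lines 14 to 17, and the sum of 10 B cell markers was 1185 and 1132 CPM, against 1684 to 2590 CPM. Mitochondrial genes took 7.18% and 7.16% of the reads in lines 18 and 19, against 5.30% to 6.73%, and the sum of 10 cell cycle markers was 3544 and 3174 CPM, against 3655 to 4998 CPM. Their part in the difference was not tested.

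The fourth comparison set tumours 20 and 21 against lines 14 and 15 of the same mice. 0 of 40 members passed the test (limma, adjusted p under 0.05, smallest member value 0.0711), where 0.33% of 12719 genes did. At an unadjusted p under 0.05 there were 11 members, against 25.9% of genes, and edgeR called no gene, members included. DESeq2 called 7 members, 1 higher and 6 lower in the tumours, against 16.5% of genes (8.17% higher and 8.34% lower), so that the members' share was near that of all genes. Both tumours were below both lines for 22 of 40 members, against 26% of genes, and above both for 3 members (*Polr1c*, *Nop10* and *Ppan*), against 31.1% of genes. The median log2 fold change was -0.33, against 0.01 over all genes tested, and 36 of 40 members had a value below 0 and 4 above it. Of all genes tested 50.5% had a value above 0.

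*Utp20* was 228 and 214.5 CPM in lines 14 and 15 and 120.5 and 119 CPM in the tumours. *Ddx21* was 711 and 789 CPM in the lines and 462 and 435 CPM in the tumours. The tumours lay below both lines for these genes, whereas *Fbl*, with 187 and 209 CPM in the lines and 186 and 188 CPM in the tumours, did not separate them. *Ppan* went the other way, with 240.1 and 245 CPM in the lines and 367 and 368 CPM in the tumours. The sum of 10 cell cycle markers was 2834 and 2776 CPM in the tumours, against 3941 and 4998 CPM in lines 14 and 15. The sum of 8 myeloid markers was higher in both tumours. For 7 T cell markers the sum was 64.2 and 34.5 CPM in the tumours and 7.34 and 62.7 CPM in lines 14 and 15. Most of this sum was *Lck*, with 62.2 and 32.7 CPM in the tumours and 7.14 and 62.2 CPM in these lines. The median of the 7 was 0.394 and 0.399 CPM in the tumours and 0 and 0.112 CPM in lines 14 and 15. Mitochondrial genes took 7.80% and 9.04% of the reads in the tumours and 6.73% and 5.30% in lines 14 and 15. The part of these in the difference was not tested.

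The labels do not settle which tumour came from which mouse: titles pair tumour 20 with line 15 and tumour 21 with line 14, and sample descriptions pair them the other way. Some members split the 4 libraries into line 15 with tumour 20 and line 14 with tumour 21, the pairs of the titles. *Pes1* was 132 CPM in line 15 and 128 CPM in tumour 20, and 248 CPM in line 14 and 241 CPM in tumour 21. *Nop16* was 130.4 and 144 CPM in line 15 and tumour 20, and 69.8 and 67.2 CPM in line 14 and tumour 21. *Nop14* and *Noc4l* followed the same order, with the higher values in line 15 and tumour 20. Chromosome 5 deviated by 0.45 in tumour 20 as it did in line 15. In the pairing by titles, 28 members were lower in the tumour of both pairs, 4 were higher in both (*Polr1c*, *Polr1e*, *Nop10* and *Ppan*) and 8 were split, with median log2 differences of -0.23 for tumour 20 and -0.39 for tumour 21. With those pairs as a replicate block in limma 12 members were called, 11 lower and 1 higher in the tumours, against 15% of genes lower and 13.3% higher. With the pairs by descriptions no gene was called, members included.

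Among MEFs, the test of the guide compared 4 sg*Bcl-2* with 2 sgNT libraries. *Bcl2* itself was 67.9, 48.6, 46.8 and 71.8 CPM with sg*Bcl-2* and 13.4 and 13.7 CPM with sgNT. Of the 40 members 3 were higher with sg*Bcl-2* and 0 lower (limma, adjusted p under 0.05), where 6.61% of 14676 genes were higher and 4.24% lower, and the members' median log2 fold change was 0.08. *Rrp1b* was 22.0, 21.0, 22.4 and 22.0 CPM with sg*Bcl-2* and 18.2 and 17.5 CPM with sgNT, a log2 fold change of 0.38 (SE 0.0798, adjusted p = 0.0229, limma). *Ubtf* was 121, 114, 120.0 and 127 CPM against 105 and 98.9 CPM, a log2 fold change of 0.33 (SE 0.0703, adjusted p = 0.0249, limma). *Utp15*, a t-UTP subunit, was 26.8, 28.7, 26.0 and 30.7 CPM against 21.9 and 23.8 CPM, a log2 fold change of 0.38 (SE 0.103, adjusted p = 0.0497, limma). The groups did not overlap for these genes, and the 7.5% of members called is near the share of all genes. These p-values treat the 4 sg*Bcl-2* and 2 sgNT libraries as separate, although the labels name the same 2 MEF lines in both groups. 0 members were called without scaling factors (12.6% of genes), with all 20 libraries in the fit (0.243%), or without sg*Bcl-2* 1.1 (6.55%), sgNT 1 (1.04%) or sgNT 2 (1.32%).

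The comparison of 2 sgNT with 2 dCas9a-SAM KI/+ libraries without an sgRNA gave the most calls within MEFs. With sgNT 31 of 40 members were lower and 1 was higher (limma, adjusted p under 0.05), where 20.9% of 14655 genes were lower and 20.3% higher. The median log2 fold change was -0.35. All 6 multifunctional genes, 7 of 8 snoRNP genes, 9 of 11 small subunit genes, 6 of 9 large subunit genes and 3 of 6 RNA polymerase I genes were lower. *Nop58* was 76.9 and 70.6 CPM with sgNT and 127 and 129 CPM without an sgRNA, a log2 fold change of -0.81 (SE 0.0651, adjusted p = 0.000101, limma). *Dkc1* was 28.3 and 27.4 CPM against 45.4 and 44.9 CPM, a log2 fold change of -0.71 (SE 0.0749, adjusted p = 0.000334, limma). *Ddx21* was 120.1 and 120.4 CPM against 186 and 179.4 CPM, a log2 fold change of -0.62 (SE 0.0646, adjusted p = 0.000327, limma).

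The single member that was higher, *Nop10*, was 42.0 and 37.6 CPM with sgNT and 23.5 and 30.3 CPM without an sgRNA, a log2 fold change of 0.56 (SE 0.125, adjusted p = 0.01001, limma). Of the 98 further pathway genes 37 were lower and 3 higher. The sum of 10 cell cycle markers moved with this difference, being 322 and 337 CPM with sgNT and 688 and 674 CPM without an sgRNA, and all 10 were lower with sgNT. Fibroblast markers moved the other way, 10 of 12 being higher and 0 lower with sgNT, with a median level of the list of 752 and 767 CPM with sgNT and 362 and 308 CPM without an sgRNA. The part of either in the difference was not tested. The sex of the cells did not match by number: sgNT 2 and both sg*Bcl-2* libraries of line 2 expressed *Xist* (436 to 566 CPM), whereas no guide 2 expressed *Ddx3y* (110.4 CPM), so these libraries are not the same cells with and without a guide. With all 20 libraries sharing 1 estimate of the spread 1 member was called, against 2.57% of genes. Without no guide 1, which leaves no guide 2 to take its spread from sgNT, it was 21 members, 20 of them lower with sgNT, against 12.8% of genes lower and 14.4% higher.

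Against WT MEFs no member was called. For sgNT against WT, 0 of 40 members and 0% of 14560 genes passed (limma, adjusted p under 0.05), and at an unadjusted p under 0.05 there were 3 members, against 4.05% of genes. Both sgNT libraries were below both WT libraries for 31 of 40 members, against 16% of genes, with a median log2 fold change of -0.49. For the libraries without an sgRNA against WT, 0 of 40 members and 0% of 14546 genes passed, and at an unadjusted p under 0.05 there were 0 members, against 7.43% of genes, with a median of -0.14. edgeR called no gene in either comparison, members included. DESeq2 called 0 members in both, against 0.57% of genes for sgNT and 1.37% without an sgRNA.

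The WT group held 2 unlike libraries. WT MEF 2 was above the 9 other MEF libraries for 35 of 40 members, against 40.5% of genes, the exceptions being *Polr1e*, *Rrn3*, *Nop10*, *Bop1* and *Nop16*. *Mybbp1a* was 584 CPM in WT MEF 2 and 220.1 CPM in WT MEF 1. *Noc2l* was 258 and 88.9 CPM, and *Npm1* 640.1 and 287 CPM, whereas *Bop1* was 46.0 and 67.6 CPM. WT MEF 2 also had the lowest cell cycle marker sum of the MEF libraries, 89.7 CPM against 237 to 688 CPM. Without WT MEF 1, which leaves WT MEF 2 alone and takes its spread from the other group, 34 members were called against sgNT, 32 of them lower with sgNT, where 26.5% of genes were lower and 26.9% higher. Against no guide it was 22, 20 of them lower without an sgRNA, where 26.8% of genes were lower and 28.3% higher. Without WT MEF 2, which leaves WT MEF 1 alone in the same way, 7 members were called against sgNT, all lower, where 4.67% of genes were lower and 6.52% higher. Against no guide it was 7 of 40, of which 5 were higher without an sgRNA, below the 31.8% of genes called.

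**Figure D4:**
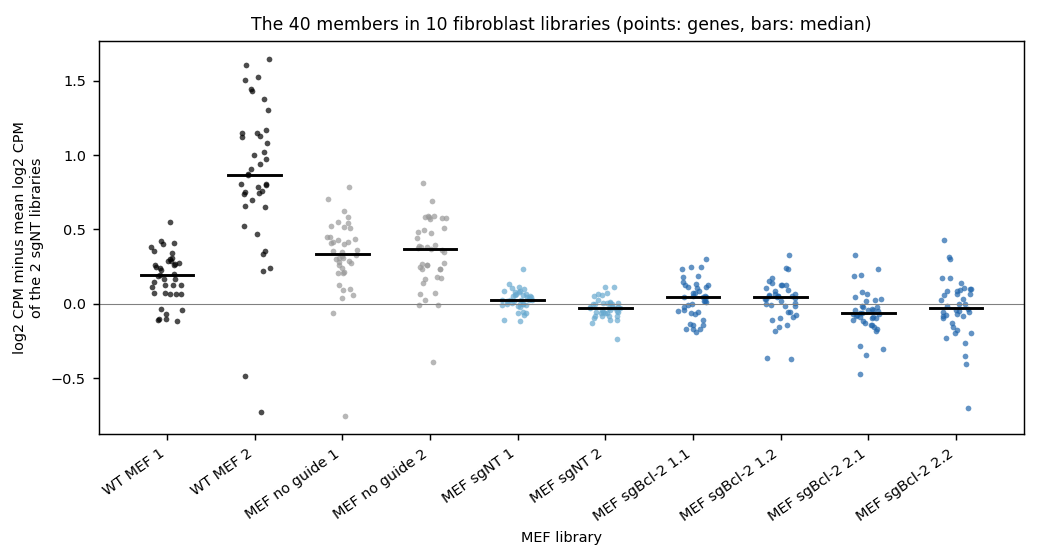
log2 CPM of the 40 members in the 10 MEF libraries minus the mean log2 CPM of the 2 sgNT libraries, 1 point per gene and a bar at the median of each library. The points of WT MEF 2 spread furthest upwards, those of the 2 libraries without an sgRNA lie mostly above 0, and those of the 4 sg*Bcl-2* libraries lie around 0.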

How the data were processed

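RNA-seq of 20 mouse libraries was analysed from 1 table of CPM with Entrez gene identifiers. Per the labels and the methods of the study, the authors prepared TruSeq libraries, aligned reads to GRCm38 (mm10) with Rsubread and worked in edgeR and limma. The deposited CPM are unfiltered and sum to 1000000 per library, and whether strand was used in counting is not given in the sources used here, so reads of overlapping antisense genes cannot be separated. Whole reads were recovered from the CPM of all libraries (100% of values whole within 0.01), with 12474885 to 26678417 reads per library. Symbols came from the RefSeq gene table of GRCm38.p6 (25242 of 25869 identifiers matched, 40 of 40 members).

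Groups came from the labels. For sgNT and sg*Bcl-2* the labels name the same MEF lines by number, *Xist* and *Ddx3y* split both groups by that number, and the deviations of same-numbered libraries correlated across genes by 0.33 (0.16 over autosomes). Over autosomes sg*Bcl-2* and WT correlated by 0.203, so the autosome value does not mark shared cells. The members, the lists of further pathway genes and markers, and the tests were chosen with earlier results of these data known. For each of 8 comparisons, genes kept by edgeR's filterByExpr were tested with limma (lmFit and eBayes with trend) on log2(TMM-scaled CPM + 0.1), using the libraries of the compared groups, with Benjamini-Hochberg adjustment over all genes tested and a threshold of 0.05. A log2 fold change is on that scale. The scripts were tested on simulated data. Per-kilobase levels used the longest APPRIS principal transcript of GENCODE vM21. Fold changes with error and p are given for the 2 called members with the smallest adjusted p per role in the first 2 comparisons, and in the others for all called members or, above 6, for the 3 with the smallest adjusted p in each direction. Promoters were printed for at most 1 member per role with CACGTG before its start, the most expressed. Alternatives were edgeR quasi-likelihood, DESeq2 and limma-voom on the recovered reads, RLE or no scaling, no filter, pseudocounts of 0.5 and 1, all libraries in the fit, each library left out, and a replicate block. R 4.3.3, limma 3.58.1, edgeR 4.0.16, DESeq2 1.42.0 and Python 3.11.15 were used.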

Additional observations from a re-analysis of the deposited data

Results flagged for a closer look

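In the 6 lines and in the 4 sg*Bcl-2* MEF libraries, each member was looked at for a single library far from the others, by Dixon's gap relative to the range of the group. Of the 80 groups looked at 4 had such a library, where chance gives about 5%. *Wdr75* was 288 CPM in line 18, the next highest line being at 193 CPM, and *Rrs1* was 292 CPM in line 18, the next being at 195 CPM. Both genes lie on chromosome 1, whose genes had a median log2 deviation of 0.49 in line 18. *Pes1* was 132 CPM in line 15, the next lowest line being at 248 CPM, and tumour 20 had a like level of 128 CPM. *Gar1*, an H/ACA snoRNP protein, was 15.8 CPM in the sg*Bcl-2* MEF library 1.1, the next highest being at 13.0 CPM.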

How the results depend on the processing

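The members' median log2 fold change kept its sign under the alternatives run, except for sg*Bcl-2* against sgNT without scaling factors and for no guide against WT, where it was 0.12 without WT MEF 2. The count of members called against preB-ALL (28 to 39, with 22.2% to 47.4% of genes) and against sg*Bcl-2* MEFs (40, with 66.3% to 82.5% of genes) stayed within 1.5 times the reported one under all of them. The median log2 fold change against preB-ALL was 1.009 without scaling factors, 1.15 with TMM factors computed without mitochondrial and fibroblast-enriched genes, and 1.02 to 1.61 with 1 library left out, the ends being without preB-ALL 2 and without preB-ALL 1. Against sg*Bcl-2* MEFs it was 1.95 with DESeq2, 1.92 with RLE factors and 2.30 without scaling factors.

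For IgM, DESeq2 called 11 members (6.1% of genes), all 20 libraries in the fit gave 2 (3.58% of genes), and the median was 0.22 without scaling factors and 0.24 to 0.30 with 1 line left out. For tumours against lines, DESeq2 called 7 (16.5% of genes), all 20 libraries gave 6 (15.1%), all 4 IgM-positive lines as the reference gave 6 (10.9%), and the replicate block by mouse number in titles gave 12 (28.3%), and the median was -0.40 to -0.32 with 1 library left out, the lowest without line 15.

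For sg*Bcl-2* against sgNT, 0 members were called without scaling factors (12.6% of genes) and with all 20 libraries (0.243%), 0 to 4 with 1 library left out (1.04% to 11.2%) and 4 with the MEF line as a replicate block (14.6%), and the median was -0.00513 without scaling factors and 0.0724 to 0.127 with 1 library left out. With 1 library left out, 0 to 34 members were called for sgNT against WT (0% to 53.4% of genes), 0 to 22 for no guide against WT (0% to 55.1%) and 21 to 27 for sgNT against no guide (27.2% to 31.9%), whose median was then -0.38 to -0.33. With all 20 libraries sgNT against no guide gave 1 call (2.57% of genes) and a median of -0.39. With the MEF line as a replicate block it gave 28 calls (36.9%), and both comparisons with WT gave 0. Outside sgNT and sg*Bcl-2* the MEF numbers were not shown to mark shared cells, the deviations of same-numbered libraries correlating across genes by -0.13 to 0.18 over the 5 other pairs of groups. Over autosomes these pairs ran from -0.142 to 0.203, against 0.162 for sgNT with sg*Bcl-2*. Where leaving out a library left 1 in a group, that library is assumed to vary like the other group. The cause of these differences was not tested. With 2 libraries in most groups, a difference that did not pass the test is not shown to be absent.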
